A study of Mus musculus with 6 samples.

Results

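The wild-type hippocampus was described from 3 of the 6 RNAseq libraries of the study, with all genes of the count table and without any library of the transgenic line. Every library stands for 1 animal, a female of 7 months of age whose genotype was wild-type, and no agent was given. In the study these mice were the controls of Tg(ORAI1)Ibd mice, an FVB/NJ line that carries ORAI1 in neurons, and the strain of the wild-type females is not stated apart from that line. They are called mouse 1, 2 and 3 after the numbers of their libraries. Polyadenylated RNA of the whole tissue was sequenced, so the values mix all cells of the piece that was dissected.

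The hippocampus is a fold of the cortex that is needed for forming memories of places and events. Excitation runs from granule cells of the dentate gyrus through pyramidal cells of CA3 and CA2 to those of CA1, and these glutamatergic cells are held in check by a smaller, varied set of GABAergic interneurons. Receptors and channels of these cells are built from subunits encoded by families of genes, and which subunit is made decides how fast a receptor closes, which ions it passes and which transmitter level opens it.

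In the order of the mice 52497799, 42154842 and 37710188 fragments were counted on genes. Levels are given as FPKM, the fragments of a gene divided by the length of its exons and by the total of its library, so that genes of different length can be set side by side, and ± is the SD over the 3 mice. A mean of at least 1 FPKM was reached by 14147 of 54838 genes, of which 12294 were protein-coding and 292 were lincRNA genes. All 3 mice were at or above 1 FPKM for 13625 genes, and at least 1 mouse for 14692. Higher levels were rarer, with 5092 genes at a mean of at least 10 FPKM, 305 at 100 and 6 at 1000. The median protein-coding gene above 1 FPKM stood at 7.42 FPKM, with quartiles of 3.48 and 15.9.

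Ttr, the thyroxine and retinol carrier made by the choroid plexus, was the highest protein-coding gene, at 2947, 3283 and 1728 FPKM in mice 1, 2 and 3. Mouse 3 was clearly the lowest of the 3. Fth1, the heavy chain of the iron store ferritin, followed with 1770 ± 172 FPKM, and Cpe, which trims neuropeptides in secretory granules, with 949.5 ± 97.1. Secreted proteins of glia and the leptomeninges stood close behind. Cst3, the protease inhibitor cystatin C, had 927 ± 240.5 FPKM, the lipid carrier Apoe 733 ± 76.9 and the prostaglandin D synthase Ptgds 731 ± 162. Neuronal genes among the 25 highest were Nrgn, a calmodulin-binding protein of dendritic spines (582 ± 66.4 FPKM), Camk2a, a kinase of the postsynapse (485 ± 13.7), the dendritic protein Ddn (484 ± 61.3), Ncdn (531 ± 4.10) and Hpca, a calcium sensor named after the hippocampus (455 ± 51.9). The sodium pump subunit Atp1b1 (622 ± 8.997), the translation factor Eef1a1 (773 ± 29.6), the chaperone Hsp90ab1 (517 ± 4.51), the lysosomal precursor Psap (574 ± 3.12) and the glycolytic enzyme Aldoa (460 ± 6.13) are used by most cells. Others of the 25 were Selenow, Rplp1, Sparcl1, Tmsb4x, Cox8a and Gpm6a, between 420 and 625 FPKM. Among protein-coding genes, Camk2a came first by fragments alone, without division by length, with 3623 CPM (fragments scaled to the library total alone), ahead of the astrocytic glutamate transporter Slc1a2 with 3359 and Ttr with 3148.

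**Figure D1:**
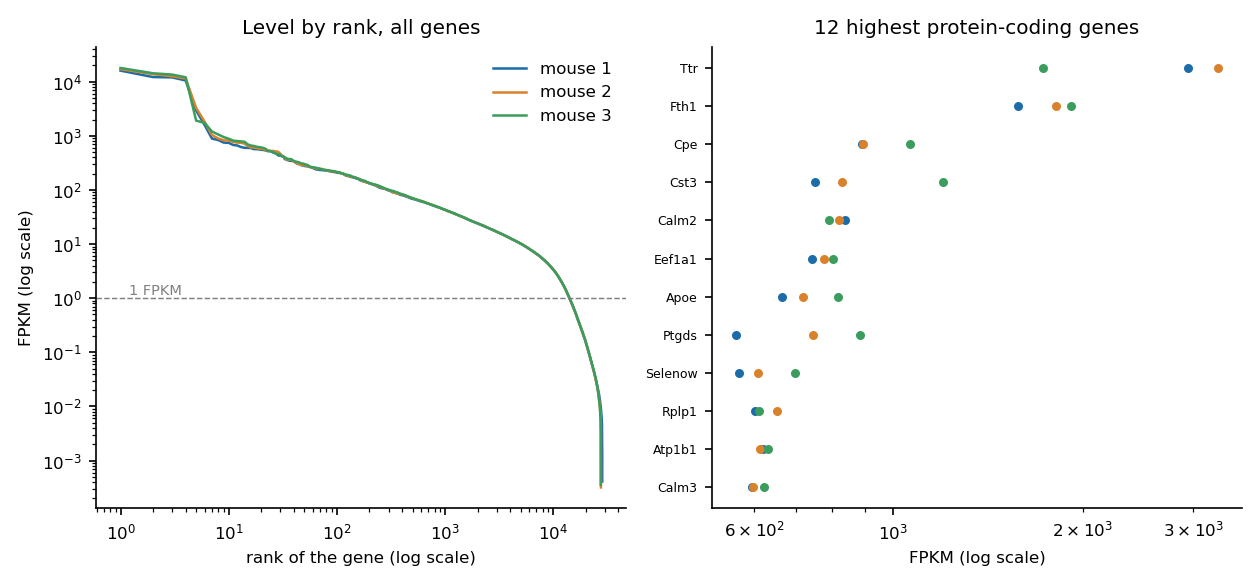
Left, FPKM of every gene with a count against its rank in each wild-type mouse, both on log scales, with a dashed line at 1 FPKM. Right, FPKM (log scale) of the 12 protein-coding genes with the highest mean, 1 point per mouse. The 3 curves lie on each other below the first few genes, and Ttr is the gene whose points lie farthest apart, with mouse 3 lowest at 1728 FPKM.

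The calmodulin genes Calm2 and Calm3 were both among the 25. Calmodulin is the calcium sensor that switches on CaM kinase II, and on GRCm38 Calm2 lies at chr17:87433412-87446935 and Calm3 at chr7:16915379-16924114. The start of each coding sequence is shown because it lets the fragments of these genes be told apart although the protein is the same. Capitals mark the 15 of the first 90 bases that differ between them, from GENCODE M21 transcripts.
Calm2: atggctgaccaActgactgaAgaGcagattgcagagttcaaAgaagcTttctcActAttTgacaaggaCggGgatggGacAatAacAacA
Calm3: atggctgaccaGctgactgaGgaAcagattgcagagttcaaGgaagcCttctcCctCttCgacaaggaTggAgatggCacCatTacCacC
The encoded proteins were identical (100%), while the coding sequences shared 82.7% of their bases. Calm2 had 837, 820 and 790 FPKM and Calm3 597, 597 and 623. Calm2 lay above Calm3 in every mouse on the FPKM scale. By fragments alone Calm3 was the higher in every mouse, with a mean of 1467 CPM against 1197 for Calm2.

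The 4 highest genes of all were annotated as unprocessed pseudogenes in 1 short stretch of chromosome 1, between positions 24613189 and 24616197 of GRCm38. Gm10925 had 16075, 17101 and 17993 FPKM, Gm29216 12219, 13830 and 14360, Gm28661 12046, 12628 and 13582, and Gm28437 10559, 11450 and 12125. In each of them mouse 1 was lowest and mouse 3 highest. Together they held 19.1% ± 0.88 of the summed FPKM. Their sequences match mitochondrial genes: Gm10925 is identical to mt-Atp6 (100% over 678 bases), Gm28661 to mt-Co2 and Gm28437 to mt-Co3, and Gm29216 matches mt-Co1 at 99.8% over 483 bases. Fragments of the 3 identical copies and of the mitochondrial transcripts cannot be told apart by sequence, nor can most of those of Gm29216, and the 37 mitochondrially encoded genes of the table had 0 counts in these libraries. The values are therefore uncertain as levels of the pseudogenes. With them, the 10 highest genes held 21.9% ± 0.85 of the summed FPKM, and 574 ± 40.7 genes held 50%. Among protein-coding genes alone the 10 highest held 4.99% ± 0.19, and 1043 ± 16.3 genes held 50%.

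Other genes without a protein were lower. The imprinted lincRNA Meg3 had 345, 323 and 289 FPKM, highest in mouse 1, and Gm42418, a lincRNA locus on chromosome 17, had 355, 526 and 501, lowest in mouse 1. Gm13340, a further copy of mt-Co1 on chromosome 2 (97.6% identical), had 360 ± 18.3 FPKM, the processed pseudogenes Atp6v0c-ps2 and Gm10123 had 345 ± 14.8 and 247 ± 3.89, and the lincRNA Gm27000 had 247 ± 15.3. Protein-coding genes took 93.3% to 93.7% of the fragments of a library and lincRNA genes 1.46% to 1.56%.

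Cell types were read from lists of marker genes, and the FPKM of a list's members were summed in each mouse. Such a sum is no cell count, since a list led by an abundant gene weighs more, and in bulk RNA fewer cells of a type and less RNA per cell cannot be told apart. The defining markers of neurons, astrocytes, oligodendrocytes, microglia and vessels were all present. The 12 general neuronal genes summed to 1529, 1472 and 1513 FPKM, which varied by 1.98% (SD over mean). They were led by Snap25 and Syp, a fusion protein and a membrane protein of synaptic vesicles, with 277 ± 1.09 and 227 ± 8.58 FPKM. The list of 7 glutamatergic genes summed to 1371, 1432 and 1500 FPKM, with Slc17a7, the vesicular glutamate transporter of cortical neurons, at 216, 217 and 224 and the transcription factor Neurod2 at 45.0, 45.1 and 45.1. Both neuronal lists differed little between the mice.

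The 10 GABAergic genes summed to 179, 172 and 138 FPKM. Gad1 and Gad2, the enzymes that make GABA, had 46.9, 44.5 and 36.7 FPKM and 33.3, 31.0 and 26.5 FPKM. All 10 members were lowest in mouse 3, where 42.3% of the 14147 genes above 1 FPKM had their lowest log2 CPM. Among markers of interneuron subtypes the peptides Sst (160, 172 and 130 FPKM) and Cck (147, 150 and 139) were highest, and Cck is also made by pyramidal cells. Npy, a peptide of interneurons that granule cells can also make, had 30.1, 40.3 and 62.5 FPKM and Calb2, a calcium buffer of interneurons and mossy cells, 25.3, 30.1 and 47.8. In contrast to the GABAergic list, both were highest in mouse 3. Pvalb, the buffer of fast-spiking cells, was even (24.4, 22.5 and 24.7 FPKM), Vip had 5.94 ± 0.86 FPKM, and Chrna2, found in a small set of interneurons, was near 0 (0.087 ± 0.027).

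**Figure D2:**
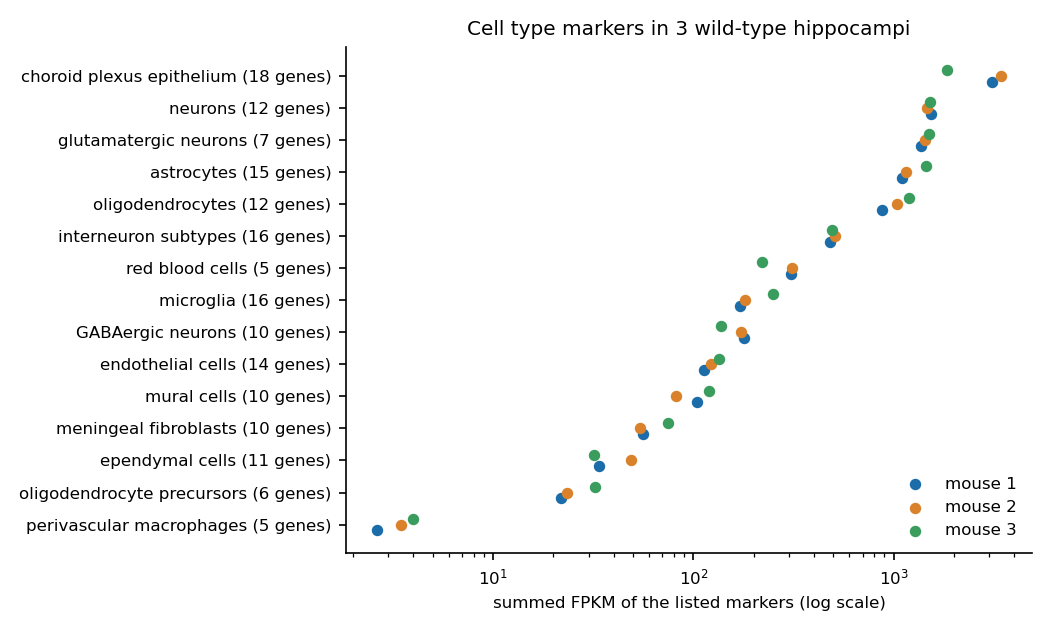
Summed FPKM (log scale) of the markers of 15 cell types, 1 point per wild-type mouse, with the number of genes in each list. The neuronal points nearly coincide, while mouse 3 lies right of the other mice for astrocytes, oligodendrocytes and microglia and left of them for choroid plexus, red blood cells and GABAergic neurons.

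Astrocyte genes summed to 1105, 1154 and 1452 FPKM, and 12 of 15 were highest in mouse 3, against 34.8% of all genes above 1 FPKM. Gfap, the intermediate filament of astrocytes, stood out with 76.3, 84.2 and 199 FPKM, followed by the calcium-binding protein S100b (57.3, 63.5 and 91.1) and the water channel Aqp4 (26.9, 25.2 and 38.7). These 3 were the members whose highest CPM was at least 1.5 times the lowest, a ratio reached by 923 genes or 6.52% of those above 1 FPKM. Other astrocyte genes moved less, such as Aldh1l1 (9.32, 9.85 and 10.1 FPKM) and Gja1 (25.5, 24.0 and 26.7). Without mouse 3 the list averaged 1129 FPKM and Gfap lay between 76.3 and 84.2.

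The 12 oligodendrocyte genes summed to 874, 1035 and 1196 FPKM. Every member was lowest in mouse 1, where 31.1% of all genes were lowest, and highest in mouse 3. The myelin genes Mbp (226, 269 and 296 FPKM) and Mobp (98.1, 119 and 131) were among the most abundant, and the ratio of the highest to the lowest CPM ran from 1.14 for the regulator Myrf to 1.54 for the tight junction protein Cldn11. Of the 6 precursor genes, 4 were highest in mouse 3 (34.8% of all genes). They were Gpr17 (7.22, 8.27 and 14.02 FPKM), Enpp6 (1.40, 1.48 and 3.21), Bmp4 (mean 1.94 ± 0.62) and Neu4 (2.29, 2.58 and 3.44), which mark cells on the way to myelination. The receptor Pdgfra (7.07, 7.30 and 6.804) and the proteoglycan Cspg4 (2.32, 2.11 and 2.16), which mark the precursors themselves, did not follow them.

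Microglial genes summed to 171, 181 and 249 FPKM, and 14 of 16 were lowest in mouse 1 and 14 of 16 highest in mouse 3, against 31.1% and 34.8% of all genes above 1 FPKM. The complement genes C1qa (25.2, 27.6 and 44.3 FPKM), C1qb (13.6, 13.1 and 23.9) and C1qc (6.68, 6.94 and 12.99) had the widest ratios, 1.74 to 1.93. Receptors that mark resting microglia differed less between the mice, with P2ry12 at 12.97, 13.2 and 15.6 FPKM and Cx3cr1 at 9.46, 10.98 and 12.9. None of the 5 genes of perivascular macrophages reached a mean of 1 FPKM. Endothelial genes were closer together (113, 122 and 135 FPKM). Among mural genes Acta2, Tagln and Myh11 of smooth muscle were lowest in mouse 2 (Acta2 24.96, 10.9 and 19.9 FPKM), whereas the pericyte gene Rgs5 was highest in mouse 3 (15.8, 18.3 and 25.5). Meningeal fibroblast genes summed to 56.3, 54.4 and 75.1 FPKM and 9 of 10 were highest in mouse 3 (34.8% of all genes).

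Choroid plexus genes moved the other way and summed to 3096, 3427 and 1843 FPKM, with 16 of 18 lowest in mouse 3, against 42.3% of all genes above 1 FPKM. Without Ttr, which made up nearly all of the sum, the list still averaged 136 ± 18.5 FPKM, among them the potassium channel Kcnj13 (19.2, 19.6 and 15.97), the hormone Kl (20.3, 19.2 and 14.5) and the folate receptor Folr1 (10.8, 10.05 and 7.83). Ependymal genes of motile cilia were highest in mouse 2 in 8 of 9 members above 1 FPKM, where 31.3% of all genes were highest, as in Rsph1 (7.45, 10.6 and 6.54 FPKM) and Foxj1 (5.08, 7.12 and 4.96). All 4 red blood cell genes above 1 FPKM were likewise lowest in mouse 3 (42.3% of all genes), with Hbb-bs at 220, 221 and 156 FPKM. Hba-a1 had 57.9 ± 10.1 FPKM and Hba-a2 3, 4 and 0 counts. The coding sequences of these alpha globin genes are 99.8% identical, so how their fragments were split is uncertain. Xist, made from the inactive X chromosome of females, had 59.8 ± 3.17 FPKM, and the 4 Y-linked genes of the list had 0 counts.

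Genes of each hippocampal subfield were present. The 5 forebrain and hippocampal identity genes, among them Lhx2, Zbtb20, Nrp2 and Emx2, summed to 68.7, 66.3 and 67.7 FPKM, a variation of 1.75%. CA1 genes summed to 160, 142 and 147 FPKM, with the growth factor Ccn3 at 40.0 ± 5.44, Mpped1 at 38.0 ± 3.28 and Wfs1, a membrane protein of the endoplasmic reticulum, at 33.7 ± 2.72. Of the 6 genes 5 were highest in mouse 1, where 33.9% of all genes above 1 FPKM were highest. CA3 genes were even between the mice (79.0, 84.7 and 81.1 FPKM), led by Cpne4 (23.9 ± 0.73), the apoptosis regulator Bok (22.3 ± 2.06), the scaffold Homer3 (14.2 ± 1.60) and the kainate receptor Grik4 (10.4 ± 0.24). CA2 genes summed to 64.7, 81.6 and 66.4 FPKM, and 5 of 6 above 1 FPKM were highest in mouse 2 (31.3% of all genes), among them Pcp4 (27.9, 39.0 and 27.4) and Amigo2 (8.30, 12.3 and 9.41). Rgs14, the signalling regulator that restrains plasticity in CA2, was not among them (19.2, 20.4 and 23.4).

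The dentate list held genes that did not move together. Prox1, the transcription factor that keeps granule cells what they are, had 11.4, 11.7 and 11.2 FPKM and Stxbp6 19.9, 19.3 and 19.3. C1ql2, a secreted organizer of mossy fibre synapses, had 13.1, 12.4 and 26.2 FPKM, and the lactase Lct 5.80, 5.85 and 9.06. Both were highest in mouse 3. The calcium buffer Calb1 had 25.8, 23.3 and 19.5 FPKM, the desmosome protein Dsp 6.12, 6.64 and 4.72 and the tryptophan oxidase Tdo2 1.45, 1.43 and 0.92, each lowest in mouse 3, as were 7 of the 9 members and 42.3% of all genes above 1 FPKM. Among mossy cell genes Calb2 was highest in mouse 3 and the dopamine receptor Drd2 in mouse 2 (1.496, 5.74 and 1.04 FPKM), while Ociad2 (38.6 ± 2.83), Nmb (4.05 ± 0.23) and Calcrl (2.52 ± 0.26) were steadier. Of 10 genes of adult neurogenesis 5 were above 1 FPKM, including Neurod1 (7.73 ± 0.40), Dcx of young neurons (2.49 ± 0.17) and Nes of stem cells (1.94 ± 0.058), and the division marker Mki67 was at 0.15 ± 0.022. For Cajal-Retzius cells Trp73 alone reached 1 FPKM (1.23 ± 0.31).

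Markers of neighbouring regions were low but not even. The 6 striatal genes summed to 9.27, 36.6 and 9.20 FPKM, and all 6 were highest in mouse 2 (31.3% of all genes). The adenosine receptor Adora2a had 0.52, 5.05 and 0.48 FPKM, the signalling regulator Rgs9 1.42, 6.59 and 1.29 and the dopamine receptor Drd1 2.14, 4.69 and 4.24. Without mouse 2 the list averaged 9.24 FPKM. Of the septal genes, Chat and Slc5a7, which make acetylcholine and take up choline, had 0.041, 0.41 and 0.028 FPKM and 0.21, 0.64 and 0.12, also highest in mouse 2, whereas Zic1 had 11.2, 11.1 and 5.95 and was lowest in mouse 3. Thalamic genes summed to 19.2, 17.9 and 13.4 FPKM, of which the kinase Prkcd made 9.89, 8.18 and 3.65. Its regulator Tcf7l2 stayed below 1 FPKM in each mouse (0.81 ± 0.13). Subicular Nts, the peptide neurotensin, had 3.97, 1.98 and 3.29 FPKM, and cortical Tshz2 5.98, 2.89 and 5.19. None of the 7 genes of monoamine neurons reached 1 FPKM, with Th at 0.39 ± 0.11. What part the dissection had in these values was not tested.

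**Figure D3:**
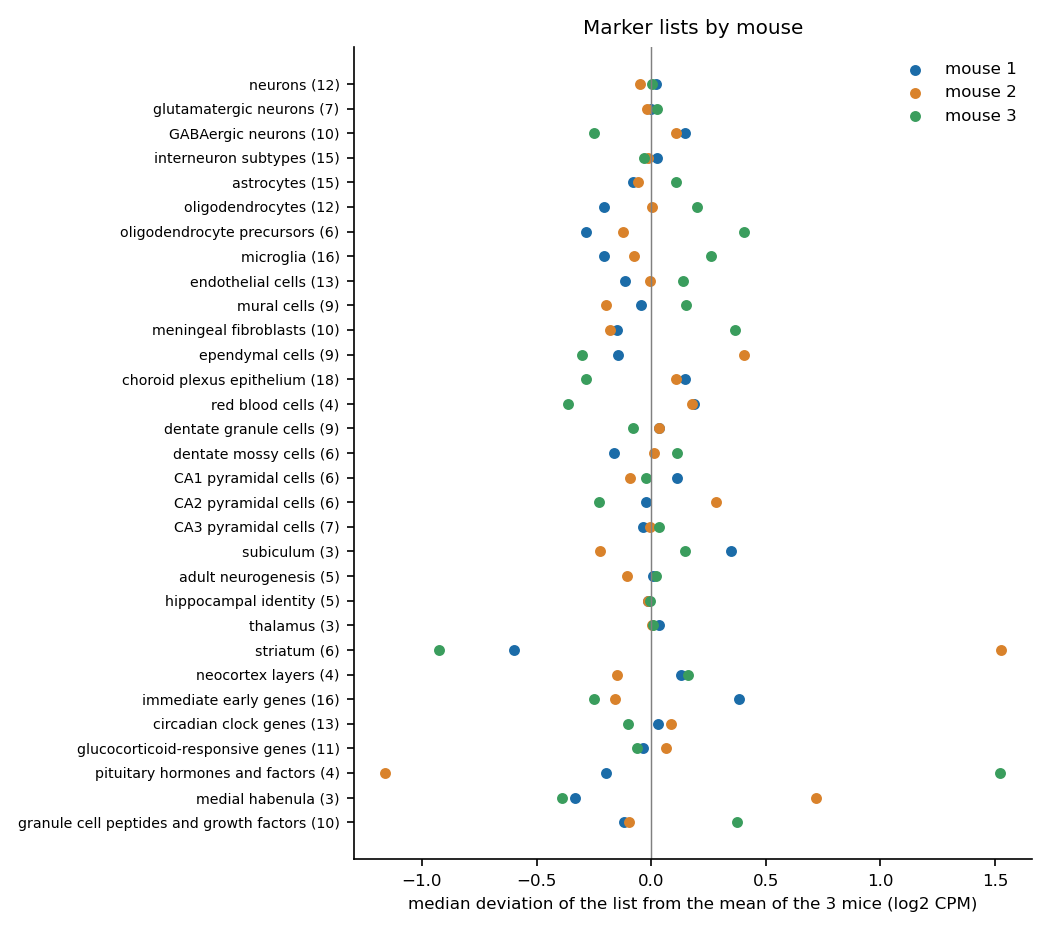
Median over the members above 1 FPKM (number in brackets) of the deviation of log2 CPM from the mean of the 3 mice, for lists with at least 3 such members, 1 point per wild-type mouse. Striatal genes in mouse 2 (1.53) and pituitary genes in mouse 3 (1.52) lie farthest to the right, and the neuronal, CA3 and identity lists lie close to 0. The pituitary, habenula and granule cell peptide lists were made after the values were seen. Which mouse is highest in them is set by that choice.

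AMPA receptors carry fast excitation, and on the FPKM scale their genes kept 1 order in every mouse. Gria1 had 163, 169 and 152 FPKM, Gria2 69.1, 62.9 and 57.7, Gria3 23.2, 22.5 and 21.5 and Gria4 12.5, 11.9 and 11.3, and no neighbours overlapped. Gria1 held 62.3% ± 1.36 of the summed FPKM of the family, a share that depends on the exonic lengths. By counts Gria1 had 51649, 43134 and 34561 and Gria2 56392, 41202 and 33807. The subunit of Gria2 keeps calcium out of the channel when a glutamine codon in its pore loop has been edited to arginine in the RNA. That codon, in capitals within 39 coding bases of each gene from GENCODE M21, is shown because the genome encodes glutamine in all 4 genes, so the edited state cannot be read from gene counts.
Gria1: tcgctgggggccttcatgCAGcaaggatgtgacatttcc
Gria2: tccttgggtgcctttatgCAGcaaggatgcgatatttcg
Gria3: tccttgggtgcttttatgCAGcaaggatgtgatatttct
Gria4: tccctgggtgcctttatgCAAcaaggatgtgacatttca
The coding sequences of the 4 genes were 65.6% to 70.6% identical between pairs, far from the identity of the alpha globin copies. Relative to Gria1, Gria2 was lower by 1.24, 1.43 and 1.40 on the log2 scale, a mean ratio of 0.39. This ratio rests on the exonic lengths of 15548 bp for Gria2 and 6043 bp for Gria1: with the length of the longest coding transcript it was 0.54, and by fragments alone the mean log2 ratio was 0.0096, with Gria2 higher in mouse 1 and lower in mice 2 and 3.

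A list of 14 auxiliary subunits of glutamate receptors, Neto1 and Neto2 among them, was led by Cnih2, which slows the closing of AMPA receptors. It had 207, 221 and 222 FPKM or 45.8% ± 2.50 of the list. Cacng8, the TARP that is enriched in hippocampus, followed with 54.7, 52.6 and 43.0, well above the stargazin gene Cacng2 with 9.79 ± 0.54. Of the kainate receptors Grik5 was highest (44.8 ± 1.146 FPKM, 62.4% ± 1.62), then Grik4 and Grik2 (7.83 ± 0.011). Grik3 had 7.20, 5.82 and 4.58 FPKM, and the SD of its share, 1.80 points, was the widest of the family. The NMDA receptor genes also kept their order on the FPKM scale. Grin1, the subunit that every NMDA receptor needs, had 51.9, 51.8 and 49.7 FPKM, Grin2b 25.7, 25.6 and 23.5, Grin2a 17.3, 18.1 and 16.4, Grin2c 11.4 ± 0.39 and Grin2d 3.04 ± 0.34. Grin2a, whose subunit closes faster, stood below Grin2b by 0.53 ± 0.034 on the log2 scale, 0.69 times its level. Among metabotropic receptors Grm5 led with 32.1, 30.5 and 26.7 FPKM, while Grm2 (8.60, 6.01 and 8.85) was lowest in mouse 2 and Grm6 had no counts.

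**Figure D4:**
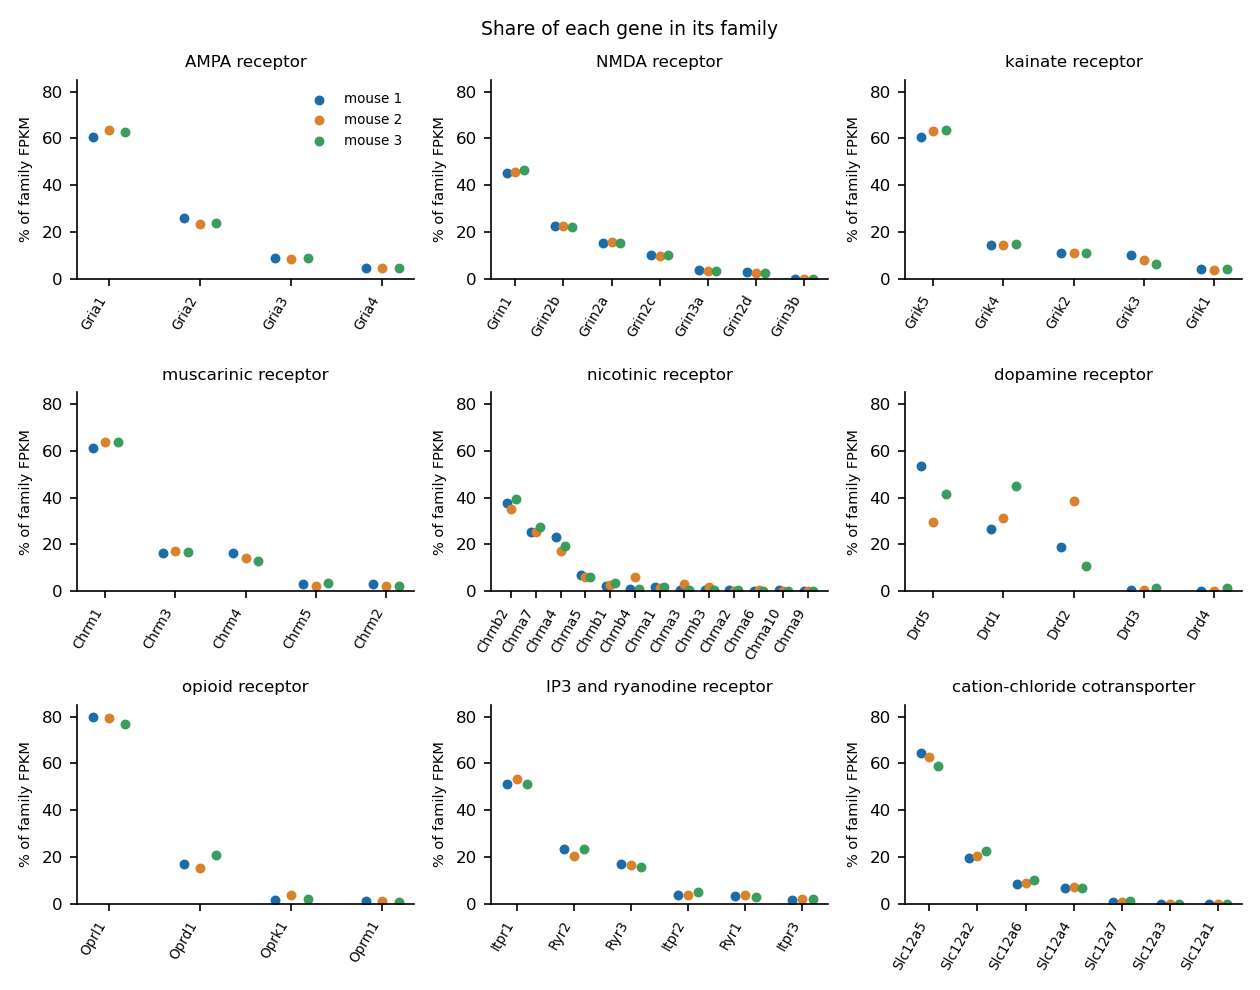
Percent of the summed FPKM of a family held by each gene in 9 families, 1 point per wild-type mouse. Points of the 3 mice lie close together in most families, and the dopamine receptors, where Drd2 is highest in mouse 2, are spread the most.

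For the GABA-A receptor, whose chloride channel carries fast inhibition, the alpha subunit Gabra5 was highest, with 54.7, 55.5 and 55.3 FPKM or 33.7% ± 1.64 of the alpha genes. It is known for receptors outside synapses of pyramidal cells. Gabra2 had 33.7, 31.7 and 38.3 FPKM. Gabra4 and Gabra3 overlapped, at 19.5 ± 1.07 and 16.9 ± 1.93, and Gabra6 of the cerebellum was at 0.15 ± 0.067. Gabrd, the delta subunit of granule cells and interneurons, had 6.84, 8.29 and 5.41 FPKM and was lowest in mouse 3. For GABA-B receptors, Gabbr1 stood at 89.7 ± 3.74 FPKM and its partner Gabbr2 at 44.6 ± 1.80. Slc12a5, the transporter that keeps chloride low in mature neurons, had 68.1, 63.7 and 55.6 FPKM against 20.7, 20.7 and 21.4 for Slc12a2, which raises it, a mean ratio of 2.97 that was lowest in mouse 3 (log2 1.72, 1.62 and 1.38).

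The muscarinic receptor Chrm1 held 63.0% ± 1.61 of its family at 31.8, 34.0 and 32.4 FPKM, and its ratio to Chrm3 was the steadiest of all ratios (log2 1.91, 1.90 and 1.91). Nicotinic receptors were led by Chrnb2 (7.75 ± 0.11 FPKM), Chrna7 (5.38 ± 0.25) and Chrna4 (4.12 ± 0.51). Of the dopamine receptors Drd5 was even (4.28, 4.38 and 3.93 FPKM), but Drd1 and Drd2 were not, and the order of these 3 genes differed between the mice. The adenosine receptor Adora1, which dampens transmitter release, had 41.6, 41.5 and 44.2 FPKM. Htr1a (8.29 ± 0.41) and Htr2c (7.92 ± 1.31) were the highest serotonin receptors and overlapped. Adra1d led the adrenergic receptors with 21.02 ± 1.76 FPKM, and Oprl1, the nociceptin receptor, the opioid family with 10.99 ± 0.99. Thra, the thyroid hormone receptor, had 168 ± 4.11 FPKM. The mineralocorticoid receptor Nr3c2 (29.8, 27.1 and 25.7 FPKM) stood above the glucocorticoid receptor Nr3c1 (12.9, 12.2 and 12.98), 2.17 times as high, while the estrogen receptor Esr1 was at 0.26 ± 0.074. Ntrk2, the receptor of BDNF, had 33.2 ± 0.52 FPKM or 77.4% ± 0.88 of the neurotrophin receptors.

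The sodium channel alpha genes Scn2a (28.8, 27.6 and 27.1 FPKM) and Scn8a (26.6, 25.8 and 22.6) of excitatory neurons were followed by Scn1a (11.6, 10.5 and 9.89), which interneurons depend on. The beta subunit Scn4b had 5.07, 16.6 and 3.39, again highest in mouse 2. Calcium channels were spread more evenly over genes, from Cacna1e (20.9 ± 1.70) through Cacna1h (16.7 ± 1.72), Cacna1b (16.01 ± 0.89) and Cacna1a (15.0 ± 0.55) to the L-type genes Cacna1c (6.58 ± 0.45) and Cacna1d (5.89 ± 0.34). Hcn2, a channel that opens on hyperpolarization, stood at 33.1 ± 1.28 FPKM.

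Potassium channels of the M-current, which limits repetitive firing, included Kcnq5 (16.1 ± 0.69 FPKM) and Kcnq3 (14.9, 15.4 and 11.6). Kcnd2, the channel of the dendritic A-current, had 24.4 ± 1.59 FPKM, Kcna1 and Kcna2 each 17.7 and Kcnma1, the large calcium-activated channel, 17.3 ± 0.75. Kcnc4 varied more (17.2, 14.1 and 22.4). Among inward rectifiers the astrocytic Kcnj10 was highest (51.5, 51.8 and 63.0), and mouse 3 was highest as for most astrocyte genes. Kcnj3, a channel opened by G proteins, had 32.1 ± 1.55. Of the leak channels Kcnk1 held 49.6% ± 2.95 of its family.

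Among transporters, Slc17a7 was 60.9 times Slc17a6, a ratio with the largest SD of the 20 examined (log2 0.35), with Slc17a6 at 4.56, 3.48 and 2.91 FPKM, highest in mouse 1. Slc1a2, which clears glutamate into astrocytes, had 229, 232 and 307 FPKM, 3.33 times Slc1a3, or 1.84 times with the length of the longest transcript. The astrocytic GABA transporter Slc6a11 (29.5, 29.6 and 22.8) was lowest in mouse 3. Camk2a was 3.31 times Camk2b, or 2.19 times with the longest transcript, with little spread (log2 SD 0.043). The calcium release channel Itpr1 (27.2 ± 2.44) stood above the ryanodine receptors Ryr2 (13.1, 10.9 and 11.1) and Ryr3 (8.67 ± 1.14). Of the scaffolds and release proteins, Dlg4, the gene of PSD-95, was at 54.2, 54.3 and 51.9 FPKM, Syn1 at 144 ± 3.56, Syt1 at 179 ± 10.5 and the inhibitory adhesion protein Nlgn2 at 46.7 ± 1.90, while the synaptotagmin Syt9 had 2.36, 4.58 and 2.16 and was highest in mouse 2.

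All 20 ratios had the same sign in the 3 mice, with a median SD of 0.081 on the log2 scale, and 19 of them lay more than 3 SD from 0. Within the families, 204 neighbours in order had an upper member above 1 FPKM, and in 165 of them the upper member was higher in all 3 mice. Values also depended on length: the longest transcript in place of the exonic length moved a ratio by a median of 0.44 on the log2 scale, and without division by length the sign turned in 3, Gria2/Gria1 (0.0096), Grin1/Grin2b (-0.32) and Scn2a/Scn8a (-0.15).

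Over all 14147 genes above 1 FPKM the mice were close. The SD of log2 CPM had a median of 0.078, the median ratio of the highest to the lowest CPM was 1.11, and 75.3% of genes had a ratio under 1.2. Genes from 1 to 10 FPKM had a median SD of 0.095 and those from 10 to 100 FPKM of 0.057. A ratio of 2 was reached by 295 genes (2.09%). Log2 CPM correlated across genes with a Pearson r of 0.996 between mice 1 and 2, 0.994 between 1 and 3 and 0.994 between 2 and 3 (14147 genes, which are not independent). Mouse 3 was the one farthest from the other mice in 47.0% of genes. Of the 923 genes with a ratio of at least 1.5, 391 were highest in it, as were 34.8% of all genes above 1 FPKM. The common biological coefficient of variation by edgeR was 0.082 for the 3 mice, 0.090 without mouse 1, 0.094 without mouse 2 and 0.056 without mouse 3. Mouse 3 also had the smallest library, and the deviation of a gene had a rank correlation with its length of 0.19 in mouse 1 and -0.13 in mouse 3 and with GC content of -0.12 in mouse 1 and 0.099 in mouse 2. The part of length, GC content and depth in the spread was not tested.

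The 20 genes with the largest SD fell into small groups. Of these 9 were highest in mouse 2, 9 in mouse 3 and 2 in mouse 1. Those of mouse 2 included the striatal genes Adora2a, Gpr6, Rgs9 and Syndig1l of the list above, with Drd2, Scn4b and the receptor Gpr151 (0.43, 4.33 and 0.84 FPKM). The mouse 3 group held the hormone genes Pomc (1.13, 1.12 and 12.8 FPKM), Gh (5.70, 1.54 and 14.8) and Prl (11.4, 6.52 and 42.0), which every library contained, the neuropeptide Gal (1.02, 0.80 and 3.95), Arhgap36 (1.02, 0.60 and 3.41), Depp1 (0.65, 0.70 and 2.79) and the growth factor Bmp3 (0.79, 0.52 and 2.17). In mouse 1 they were Fos (5.44, 1.49 and 1.86) and Lbhd2 (5.86, 3.54 and 0.75). Gm5741 (9, 88 and 4 counts), Gm11042 (2, 5 and 11 counts) and 1 gene without a symbol (21, 15 and 72 counts) rested on few fragments. At the other end Rapgefl1 (43.1, 43.2 and 43.4 FPKM), Ppp1r8 (11.9 ± 0.048), Fam172a (5.51 ± 0.021), Tcf25 (99.0 ± 0.41) and Cntln (2.46 ± 0.0084) had the smallest SD. Rapgefl1 differed by a ratio of 1.00 between the highest and the lowest mouse.

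**Figure D5:**
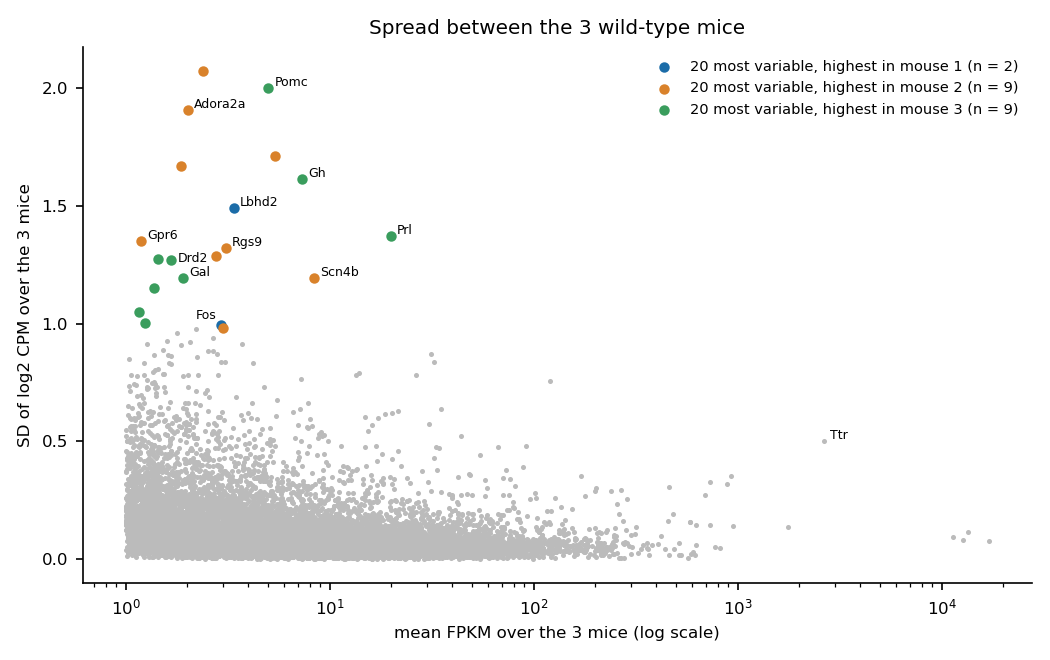
SD of log2 CPM over the 3 wild-type mice against mean FPKM (log scale) for the 14147 genes above 1 FPKM, with the 20 most variable genes coloured by the mouse in which they were highest. Most of these 20 lie below 10 FPKM, and Ttr is marked as the most abundant gene with a wide spread (SD 0.50).

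Genes switched on within minutes by neuronal activity had a median SD of log2 CPM of 0.40, against 0.078 over all genes above 1 FPKM. Among receptor families this median was 0.079 for AMPA and 0.076 for NMDA receptors but 0.61 for dopamine receptors. Immediate early genes summed to 168, 120 and 115 FPKM, and 12 of the 16 above 1 FPKM were highest in mouse 1, where 33.9% of all genes were highest. Also 12 of the 16 had a ratio of at least 1.5, against 6.52% of all genes. Fos, the classical activity marker, is given above, and Arc, which acts at dendrites, had 29.6, 18.9 and 16.2 FPKM. The transcription factors followed the same order of mice in Egr1 (22.5, 15.5 and 10.3), Egr4 (7.80, 5.65 and 3.11) and Nr4a1 (16.02, 9.42 and 8.72). The slower genes Bdnf (6.28, 5.30 and 9.57), Nptx2 (7.77, 8.60 and 13.2) and Inhba (1.62, 1.36 and 2.02) were instead highest in mouse 3. Without mouse 1 the list averaged 118 FPKM.

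Clock genes summed to 197, 212 and 188 FPKM for 13 genes, and 10 of 13 were lowest in mouse 3, against 42.3% of all genes above 1 FPKM. Of the 13, 9 were highest in mouse 2 (31.3% of all genes). Their median SD of log2 CPM was 0.12, against 0.078 over all genes above 1 FPKM. Ciart (4.18, 5.99 and 3.76 FPKM) was the member with a ratio of at least 1.5, which 6.52% of all genes reached. Dbp (23.0, 30.5 and 26.3) and Per2 (6.70, 7.84 and 6.39) were highest in mouse 2. Genes that respond to glucocorticoids summed to 375, 434.5 and 485 FPKM. Of 11 members 6 were highest in mouse 2 and 6 lowest in mouse 3, against 31.3% and 42.3% of all genes. The order of the sums was that of the abundant metallothioneins Mt1 (115, 135 and 158) and Mt2 (147, 175 and 214) and the kinase Sgk1 (17.4, 21.5 and 24.6), the 3 members highest in mouse 3, while Fkbp5 (5.75, 6.39 and 5.02) and Tsc22d3 (12.2, 14.8 and 13.7) were highest in mouse 2. The labels do not give the hour of death.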

How the data were processed

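Hippocampal RNA of 3 wild-type females was used, 1 library per mouse, grouped by the labels. The authors trimmed reads with Trimmomatic, aligned them to mm10 with STAR and counted fragments with featureCounts (1.5.0-p1, reverse strand, mapping quality of at least 3, primary alignments, Ensembl 95). They deposited raw counts per gene with exonic lengths, and the labels call the run paired-end and also single 76 bp reads. The 3 transgenic columns were not used.

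From the counts, FPKM were computed with the deposited length and the library total. Log2 CPM (TMM, prior count 2) and BCV were computed with edgeR 4.0.16 in R 4.3.3, and FPKM in Python 3.11.15. Symbols, biotypes, transcript lengths and sequences came from GENCODE M21 (54809 of 54838 genes matched), and alignments from Biopython 1.88. One group allows no test between groups. With 3 mice, and with totals of 37710188 to 52497799 counts, genes of few counts are imprecise, and 3 counts equal 0.057 to 0.080 CPM. Named were the 25 highest protein-coding genes, the 10 highest others of at least 200 bp, the 20 most and 5 least variable genes above 1 FPKM, members of 82 lists (562 genes) and 20 ratios. Some genes and the ratios that need them are not reported here. The lists and rules were chosen with earlier results of these data known, and 4 lists (37 genes) were added after these values were seen. Spread and level code was tested on simulated data. Alternatives changed lengths, scaling, prior count, filters, list members and mice.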

Additional observations from a re-analysis of the deposited data

How the results depend on the processing

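No paired analysis was possible because only 1 group was used. Counts of genes by level, the concentration of the RNA, the sums of cell type, region and added lists, the ratios and the spread were recomputed with 1 choice changed. The immediate early, clock, glucocorticoid and sex lists were recomputed with a mouse left out and under no other choice, and family shares under none. TPM are the same values times 3.44 to 3.58, and with them 10669, 1627 and 48 genes reached 10, 100 and 1000. With the longest transcript in place of the exonic length 496 genes reached 100 FPKM and 11 reached 1000, the top 10 genes held 17.0% of the summed FPKM and the top 10 protein-coding genes 4.18%. By counts these shares were 5.72% and 2.80%, and 1190 genes held 50%. The other counts of genes stayed within 1.5 times.

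List sums depended on length and on single members. With the longest transcript neurons summed to 2916, astrocytes to 1645, oligodendrocytes to 1489 and endothelial cells to 158 FPKM, and neurons then stood above the choroid plexus. Of these, only the neuronal sum moved by over 1.5 times. Among the other lists GABAergic neurons (266), meningeal fibroblasts (107), CA2 (108) and thalamus (27.6) moved by over 1.5 times as well. Without its most abundant member each list fell, neurons to 1227, astrocytes to 938, oligodendrocytes to 749, microglia to 146, endothelial cells to 94.1 and choroid plexus to 136. In TPM they were 5271, 4324, 3617, 700.2, 431 and 9790.

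In the order Gria2/Gria1, Grin2a/Grin2b, Gad1/Gad2, Slc12a5/Slc12a2 and Camk2a/Camk2b, the log2 ratio with the longest transcript was -0.89, -0.28, 1.65, 1.88 and 1.13, and without length 0.0096, -0.998, 0.87, 1.76 and 1.44. Without length the sign also turned for Grin1/Grin2b (-0.32) and Scn2a/Scn8a (-0.15).

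Leaving out 1 mouse gave between 328 and 586 genes with a ratio of at least 1.5, lowest without mouse 3, and a median SD of log2 CPM from 0.048 to 0.074. A smaller number of mice narrows the first by construction. DESeq2 size factors, plain totals, a prior count of 0.5 and a minimum of 10 counts in every library changed neither by more than 1.5 times.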

Other observations

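Some genes were grouped after their values had been seen, 37 in all with 8 that also stand in lists above, and they are given as values only. Which mouse is highest in these groups is set by how they were chosen. Of 11 genes of the pituitary, a gland below the brain, the 4 at or above 1 FPKM were the hormones Prl, Gh, Pomc and Lhb, and the list summed to 19.5, 10.8 and 71.9 FPKM. Cga, the shared subunit of pituitary glycoprotein hormones, had 10, 3 and 51 counts, and the pituitary factor Pou1f1 3, 1 and 12. Both were highest in mouse 3, whereas Lhb was highest in mouse 2 (1.01, 1.57 and 0.70 FPKM). Without mouse 3 the list averaged 15.2 FPKM. Of 8 hypothalamic peptides 1 reached 1 FPKM, Avp at 1.09, 0.78 and 1.52 FPKM, highest in mouse 3 and lowest in mouse 2. The list summed to 4.11, 1.79 and 3.16 FPKM, with Pmch at 1.12, 0.25 and 0.78, and Kiss1 had 0 counts. What part tissue near the hippocampus had in these values was not tested.

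All 8 genes of the medial habenula, a nucleus that lies above the thalamus, were highest in mouse 2, against 31.3% of all genes above 1 FPKM. Only 3 of the 8 reached a mean of 1 FPKM, and the list was made after the values were seen. The transcription factor Pou4f1 had 9, 160 and 7 counts, the nicotinic subunits Chrnb4 35, 213 and 26, Chrna3 23, 152 and 19 and Chrnb3 26, 100 and 17, and the tachykinin Tac2 2.18, 4.58 and 2.12 FPKM. The list summed to 6.62, 16.9 and 6.04 FPKM, and to a mean of 6.33 without mouse 2. Mouse 2 is also the mouse in which the 6 striatal genes were highest.

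A list of 10 genes of peptides, growth factors and a calcium buffer that granule cells can express summed to 208, 227 and 290 FPKM. Of them 7 were highest in mouse 3, against 34.8% of all genes above 1 FPKM, but the list was made after the values were seen. C1ql2 and Gfap were also highest in mouse 3, whereas 7 of the 9 dentate granule cell genes were lowest in it. Penk, the enkephalin precursor, had 14.4, 33.1 and 46.8 FPKM, and Npy, Nptx2, Bdnf, Gal, Inhba and Scg2 (68.7, 69.1 and 89.2) shared the highest mouse. Vgf (48.7, 40.7 and 40.0) and Pdyn (3.45, 4.59 and 2.88) did not, and Calb1 was lowest in mouse 3. With 1 mouse at each of these levels, none of these groupings has a replicate.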
